A study of Homo sapiens with 8 samples.

Results

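The transcripts described here are those of 8 chromatin remodeller genes, ARID1A, ARID1B, ARID2, SMARCA4, CHD1, CHD7, CHD9 and BPTF, in a study of the RNAs that co-purify with the RNA-binding protein QKI7. They were chosen by gene name: each row under 1 of these names in the 4 deposited peak lists was taken, and peaks were matched between lists by position. This gave 84 of 42083 peaks. They formed 27 of 14518 sites and belonged to 8 of 6520 named genes.

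The cells were HepG2, an established line from a human liver cancer, carrying Cas9 and a lentiviral 3 x Flag-QKI7 transgene in each of the groups, so that the bound protein was overexpressed in the controls too. Cells of the first group also had METTL1 depleted with an sgRNA (sgMETTL1), and those of the second carried the control guide sgNS. METTL1 places 7-methylguanosine on RNA. GFP-positive cells were kept and expanded, and the labels do not say whether they were 1 clone. After UV cross-linking, RNA pulled down with a Flag antibody (IP) and input RNA were sequenced, in 2 replicates of each guide. Nothing in the labels says that the replicates were grown separately. The p-values of the comparisons therefore reflect the spread between these lists alone, and that spread may be technical. Each peak list compares 1 IP with its input, which gives 2 lists for sgMETTL1 and 2 for sgNS. The study asked whether METTL1 affects how QKI7 binds its targets.

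SWI/SNF complexes use the energy of ATP to slide or evict nucleosomes and so open chromatin. SMARCA4, also called BRG1, is one of the alternative ATPase motors of these complexes. ARID1A and ARID1B are alternative DNA-binding subunits of the BAF form, and ARID2 marks the PBAF form. CHD proteins are remodelling ATPases with paired chromodomains. CHD1 acts at transcribed genes, CHD7 at enhancers in development, and CHD9 is a close relative of CHD7. BPTF is the largest subunit of NURF, a remodeller built on an ISWI ATPase, and reads a methylated histone tail. QKI proteins bind RNA through a KH-type domain and regulate splicing, stability and translation of their targets.

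Every fold enrichment (IP over input) and every p below is the authors' own value for that peak. A fold is a ratio and not a transcript level, and the lists give no transcript level. In lysates of whole cultures, fewer cells with a bound transcript and less bound RNA per cell cannot be told apart. The lists held 10095 and 9388 peaks with sgMETTL1 and 11562 and 11038 with sgNS. METTL1 had no peak in any list, so the lists do not check its depletion. Of the hepatocyte markers reported here, 5 had a peak in all 4 lists (APOB, SERPINA1, FGB, HNF4A and FOXA2), ALB had one in 1 list, and AFP, APOA1, TTR and TF had none. Of 7 markers of other cells, LYZ had a peak in all 4 lists, HBB in 1 and the other 5 in none. A missing peak does not show that a gene is silent.

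All 8 remodeller genes had a peak in all 4 lists, as had 4150 of the 6520 named genes (63.7%). The genes were picked with earlier results of these data known, so this count shows nothing particular to them. The genes held 23 and 20 peaks in the sgMETTL1 lists and 19 and 22 in the sgNS lists. Sites are numbered from the 5' to the 3' end of each gene. Of the 27 sites, 14 were found in all 4 lists, against 41.3% of all sites. A further 2 were in 3 lists, 6 in 2 lists and 5 in 1 list. No peak of the 8 genes shared bases with a peak listed under another gene's name in the same list.

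The sites lay mostly toward the 3' end of the gene span. The centre of 23 of the 27 sites fell in the last 10% of the annotated gene span. By peak, it was 18 of 23 and 16 of 20 with sgMETTL1 and 16 of 19 and 18 of 22 with sgNS. Over all peaks the share was 74.0 and 73.9% with sgMETTL1 and 75.0 and 75.2% with sgNS. The 4 other sites were ARID1B site 1, ARID2 sites 1 and 2, and CHD7 site 1. The span is a genomic length, so its last 10% can reach far from the end. CHD9 site 1, counted there, lay 22966 bases from the annotated 3' end. Which part of the transcript a site covers (coding exon, intron or UTR) was not analysed here.

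**Figure D1:**
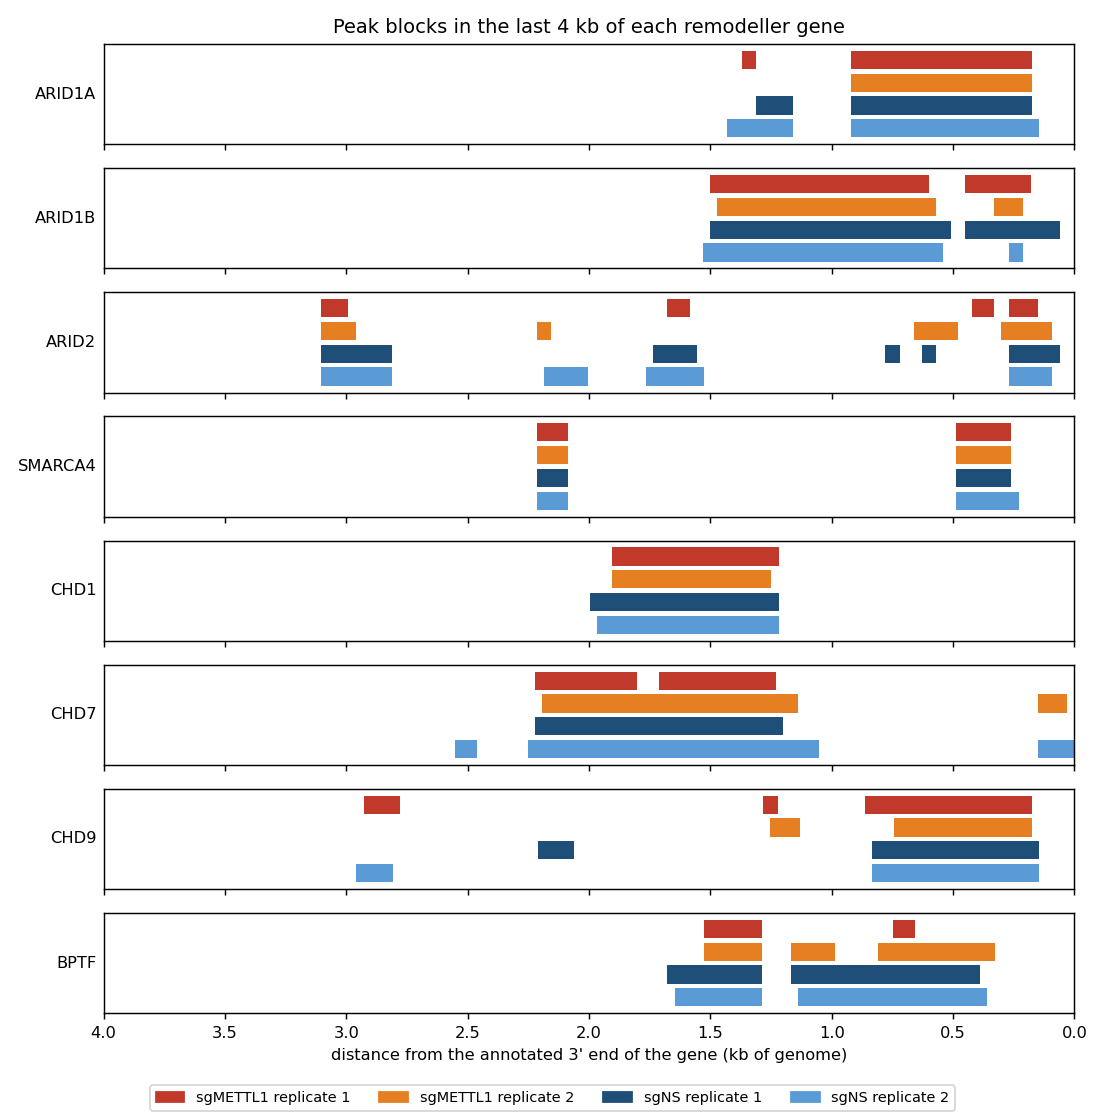
Exon blocks of each peak in the last 4 kb of the 8 genes, plotted by distance from the annotated 3' end (kb of genome), with 1 row of bars per list: sgMETTL1 replicates 1 and 2 above sgNS replicates 1 and 2. ARID1A, ARID1B, SMARCA4, CHD1 and CHD9 have a site at nearly the same place in all 4 lists, as have BPTF (site 1) and CHD7 (site 3). ARID2 has several narrow sites that differ between lists.

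ARID2, the PBAF subunit, had the site with the smallest p of the 8 genes in every list and the highest fold in 3 of the 4, with CHD9 site 5 above it in replicate 2 of sgNS. Site 1 lay on the plus strand of chromosome 12 at 45848961 to 45852132 (GRCh38), 55905 bases before the annotated 3' end of the gene. Its fold was 37.3 and 48.4 with sgMETTL1, against 55.3 and 54.4 with sgNS. Both sgMETTL1 values were below both sgNS values. On folds, this held for 39.2% of all 6003 sites found in all 4 lists, a share that applies to the sites below too. The log10 p of the site was -364 and -400 with sgMETTL1 and -854 and -824 with sgNS. In fold it stood at the 4.09th and 2.42nd percentile of the peaks of the sgMETTL1 lists and at the 1.83rd and 1.77th of the sgNS lists, where 0 is the strongest. The peak also changed in extent. Its strongest peak was a single block of 1646 and 1556 bases with sgMETTL1, while it joined 3 blocks of 2244 bases in replicate 1 of sgNS and 2 blocks of 1795 bases in replicate 2. Just downstream, within the same site, both sgMETTL1 lists held a separate weak peak (1.81-fold and 1.56-fold), as did replicate 2 of sgNS (2.41-fold), and in replicate 1 of sgNS this stretch belonged to the strongest peak.

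ARID2 had 7 peaks in every list, and stood within the top 1.64% of genes by number of peaks in each. Site 3 (45891913 to 45905224) joined 5 blocks with gaps between them in 3 lists and 4 blocks in replicate 2 of sgMETTL1. Its fold was 3.65 and 4.59 with sgMETTL1, against 6.26 and 6.45 with sgNS, again with no overlap. Site 2 (45852760 to 45860904) joined 2 blocks and was weak in all lists, at 2.2-fold and 2.28-fold with sgMETTL1 and 2.4-fold and 2.03-fold with sgNS. Here the guides overlapped. Site 9, 61 bases from the annotated 3' end (45907737 to 45907976), had folds of 4.4 and 4.86 with sgMETTL1, against 9.26 and 4.53 with sgNS. Replicate 1 of sgNS stood apart from the other lists there. Sites 4 to 8 were narrow peaks between sites 3 and 9, none in all 4 lists, with folds of 2.9 to 4.63.

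**Figure D2:**
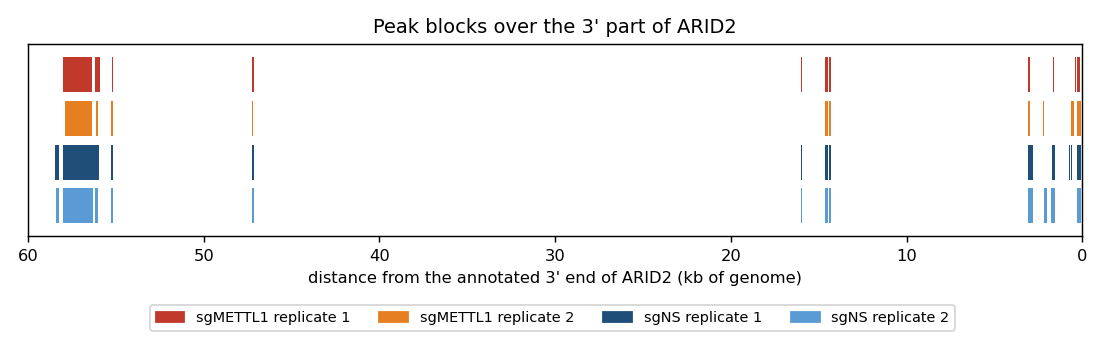
Exon blocks of the ARID2 peaks over the last 60 kb of the gene, by distance from its annotated 3' end (kb of genome), with sgMETTL1 replicates 1 and 2 above sgNS replicates 1 and 2. The wide block at the left is site 1, which in the sgNS lists also has 1 or more short blocks upstream.

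ARID1A, the BAF subunit, had 1 strong site at its 3' end. Site 2 (chromosome 1, plus strand, 26781183 to 26781960) began at the same base in all lists and ended 144 bases or more before the annotated 3' end. Its fold was 11.2 and 8.99 with sgMETTL1, against 19.9 and 14.9 with sgNS, with both sgMETTL1 values lower. The log10 p was -178 and -175 with sgMETTL1 and -419 and -396 with sgNS. By p the site was among the strongest 5.84% of peaks in every list, although by fold it stood only at the 21.0th and 26.5th percentile with sgMETTL1 and the 11.7th and 15.5th with sgNS. ARID1A site 1 (26780674 to 26780944), just upstream, was weak: 1.5-fold in replicate 1 of sgMETTL1, absent from replicate 2, and 1.73-fold and 1.9-fold with sgNS.

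ARID1B, which substitutes for ARID1A in BAF, likewise had its strongest site near its 3' end. Site 2 (chromosome 6, plus strand, 157209249 to 157210269) had folds of 28.2 and 16.7 with sgMETTL1, against 22.2 and 24.2 with sgNS. The sgNS values lay between the sgMETTL1 values. Although its folds were above those of the ARID1A site in all 4 lists, its evidence was weaker, with a log10 p of -18.7 and -21.1 with sgMETTL1 and -68.1 and -74.5 with sgNS. Site 3 (157210329 to 157210719) followed it downstream, with folds of 4.74 and 4.51 with sgMETTL1, against 5.52 and 2.93 with sgNS. Site 1 (156778860 to 156778950), near the 5' end at 0.662% of the gene span, was listed only in replicate 1 of sgMETTL1 at 6.1-fold, with a p of 0.00069.

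SMARCA4, the ATPase, had the lowest fold in every list when each of the 8 genes is taken by its strongest peak. It had 1 site, of 2 blocks, on the plus strand of chromosome 19 (11060058 to 11062043), whose last block ended at least 230 bases before the annotated 3' end. Its fold was 1.74 and 1.57 with sgMETTL1, against 1.38 and 1.73 with sgNS. The guides overlapped, and by fold the site stood at the 94.2nd and 96.4th percentile with sgMETTL1 and the 98.8th and 92.0th with sgNS. Its log10 p was -21.7 and -15.5 with sgMETTL1 and -6.09 and -13.7 with sgNS, the only one of the 14 sites found in all lists with more evidence in both sgMETTL1 lists.

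CHD1 also had a single site (chromosome 5, minus strand, 98855204 to 98855981), 1219 bases from the annotated 3' end. Its fold was 5.9 and 6.88 with sgMETTL1, against 5.27 and 8.52 with sgNS. The sgNS values lay on either side of both sgMETTL1 values.

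CHD7 had a site far from its 3' end, as ARID2 had. Site 1 (chromosome 8, plus strand, 60742171 to 60742771) lay at 33.7% of the gene span, 125257 bases before the annotated 3' end. It was found in all 4 lists. Its fold was 7.82 and 5.43 with sgMETTL1, against 8.92 and 7.76 with sgNS, and replicate 1 of sgMETTL1 lay between the sgNS values. The log10 p of -195 and -154 with sgMETTL1 and -349 and -306 with sgNS put it among the strongest 6.64% of peaks by p. Site 3 (60865777 to 60866977), near the 3' end, had folds of 6.53 and 4.77 with sgMETTL1, against 5.42 and 5.85 with sgNS. It was split into 2 peaks in replicate 1 of sgMETTL1, the second at 7.45-fold. Site 4, at the annotated 3' end (60867877 to 60868027), was listed only in the second replicates, at 11.1-fold with sgMETTL1 and 21.1-fold with sgNS. These were the highest CHD7 folds in both lists, but their log10 p was only -3.21 and -4.05.

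CHD9 had its main site, site 5 (chromosome 16, plus strand, 53326634 to 53327352), 145 bases from the annotated 3' end. Its fold was 11.7 and 13.1 with sgMETTL1, against 19.2 and 66 with sgNS. Both sgMETTL1 values were lower, and the sgNS replicates differed more from each other than the sgMETTL1 values did from replicate 1 of sgNS. The log10 p, by contrast, was close between the sgNS replicates (-89.7 and -99.3) and was -33.7 and -46.6 with sgMETTL1. CHD9 sites 1 to 4 were narrow and weak, with folds of 2.08 to 3.86, and none was in more than 2 lists.

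BPTF, the NURF subunit, had adjoining sites at the 3' end on the plus strand of chromosome 17. Site 1 (67982702 to 67983091) had folds of 2.85 and 3.03 with sgMETTL1, against 2.36 and 3.69 with sgNS. Site 2 (67983211 to 67984049) was the least repeatable of the group. Its fold was 10.2 and 44.4 with sgMETTL1, against 19.3 and 7.04 with sgNS, so each guide held a high and a low value. The peaks differed in extent as well, at 91 and 480 bases with sgMETTL1 and 779 bases in both sgNS lists. Replicate 2 of sgMETTL1 had a second, weaker peak in the same site, at 4.54-fold.

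**Figure D3:**
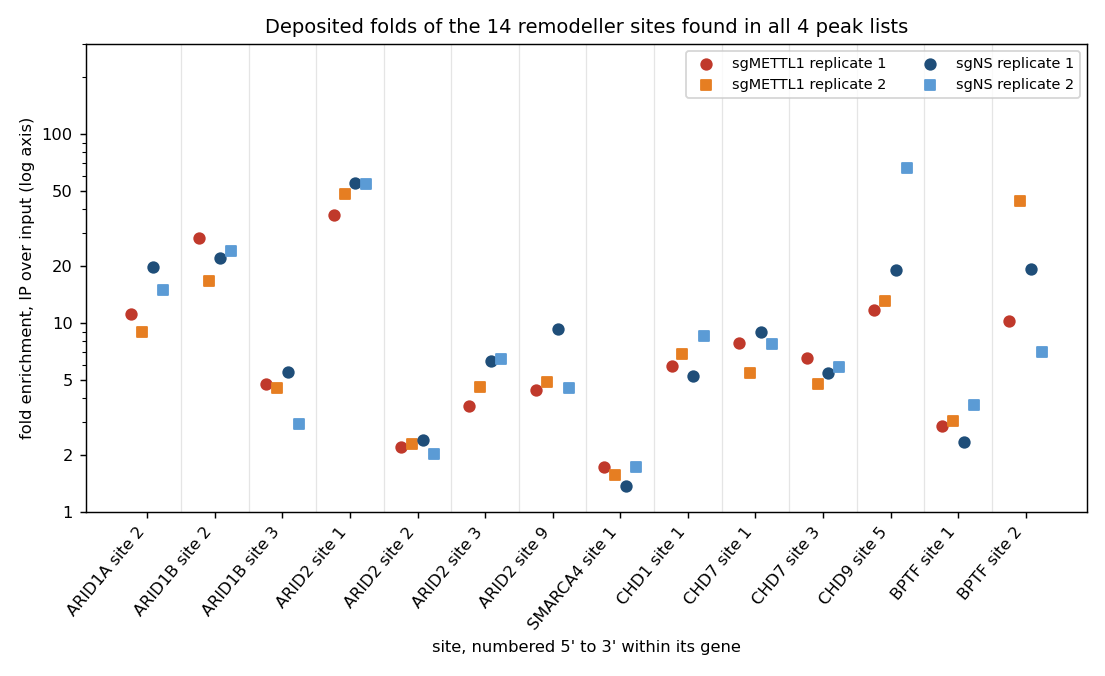
Fold enrichment (IP over input, log axis) of the 14 sites found in all 4 lists, 1 point per list, with sgMETTL1 (red and orange) left of sgNS (dark and light blue). ARID2 site 1 stands at 37.3 to 55.3-fold and SMARCA4 site 1 at 1.38 to 1.74-fold, and at BPTF site 2 the replicates of each guide lie further apart than the guides.

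Some folds are coarse. In each list a share of the folds are whole multiples of 1 step, fitted here as 3.048 and 2.776 with sgMETTL1 and 2.315 and 2.113 with sgNS. The multiples held for 13.7 and 14.3% of the folds under 100 with sgMETTL1 and 13.7 and 12.6% with sgNS, against 0.77 to 1.52% for a step 7% larger. Among the 84 remodeller peaks, 7 had such folds, including BPTF site 2 (16 steps) and ARID1B site 2 (6 steps) in replicate 2 of sgMETTL1, ARID2 site 9 in replicate 1 of sgNS (4 steps) and CHD7 site 4 in both of its lists (4 steps with sgMETTL1, 10 with sgNS). Whether the steps account for the spread at these sites was not tested.

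To compare the guides site by site, the sites found in all 4 lists were ranked by fold within each list, among themselves. Ranks were turned into normal scores, since no source states a common scale for the lists. The sites of all 4 lists were then compared with limma, with Benjamini-Hochberg adjustment over all 6003 of them, of which 14 belonged to the remodellers. Limma called 0 of the 14 remodeller sites at an FDR of 5%, and 0 of the 6003 (0.0%). At an unadjusted p under 0.05 it found 0 of the 14 and 646 of the 6003 sites. The largest differences were at CHD9 site 5, with a score difference of -0.72 (SE 0.40, 95% interval -1.75 to 0.31, adjusted p = 0.554), and at BPTF site 2, with 0.62 (SE 0.48, interval -0.61 to 1.85, adjusted p = 0.665). Both sizes moved when 1 list was left out: the difference at CHD9 site 5 was -0.16 without replicate 2 of sgNS and -1.28 without replicate 1, and that at BPTF site 2 was 0.0391 without replicate 2 of sgMETTL1 and 1.203 without replicate 1. SMARCA4 site 1 had 0.52 (interval -0.39 to 1.43, adjusted p = 0.619) and ARID1B site 3 had 0.41 (interval -0.35 to 1.18, adjusted p = 0.643). The difference at SMARCA4 site 1 was 0.0486 without replicate 1 of sgNS and 0.99 without replicate 2, and that at ARID1B site 3 was 0.787 without replicate 1 of sgNS and 0.0382 without replicate 2. The remaining 10 sites had differences between -0.29 and 0.23. The median over the 14 sites was 0.11, beside -0.01 over all sites. These intervals leave room for differences in either direction at each site, so they do not show that the guides act alike.

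Scores that did not overlap between the guides were seen at 6 of the 14 sites. Both sgMETTL1 scores were lower at ARID1A site 2, ARID2 sites 1 and 3 and CHD9 site 5, which is 4 of 14 sites, against 23.6% of all sites. Both were higher at ARID1B site 3 and ARID2 site 2, which is 2 of 14, against 20.3% of all sites, and there the folds themselves overlapped. Both counts were close to those of the whole series. Ranked among all peaks of a list, the 2 higher sites overlapped between the guides. ARID1B site 3 stood at percentiles 47.7 and 49.2 with sgMETTL1, against 42.2 and 67.8 with sgNS. ARID2 site 2 stood at 86.4 and 83.5 with sgMETTL1, against 79.2 and 85.7 with sgNS. The 4 lower sites did not overlap there either. On the folds themselves, 4 of the 14 sites were lower and 0 higher, against 39.2 and 9.73% of all sites. At ARID1A site 2 the score difference was -0.28 (interval -0.76 to 0.20) and at ARID2 site 1 it was -0.19 (interval -0.70 to 0.32). ARID2 site 1 stood at -0.0531 without replicate 1 of sgMETTL1 and at -0.33 without replicate 2.

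**Figure D4:**
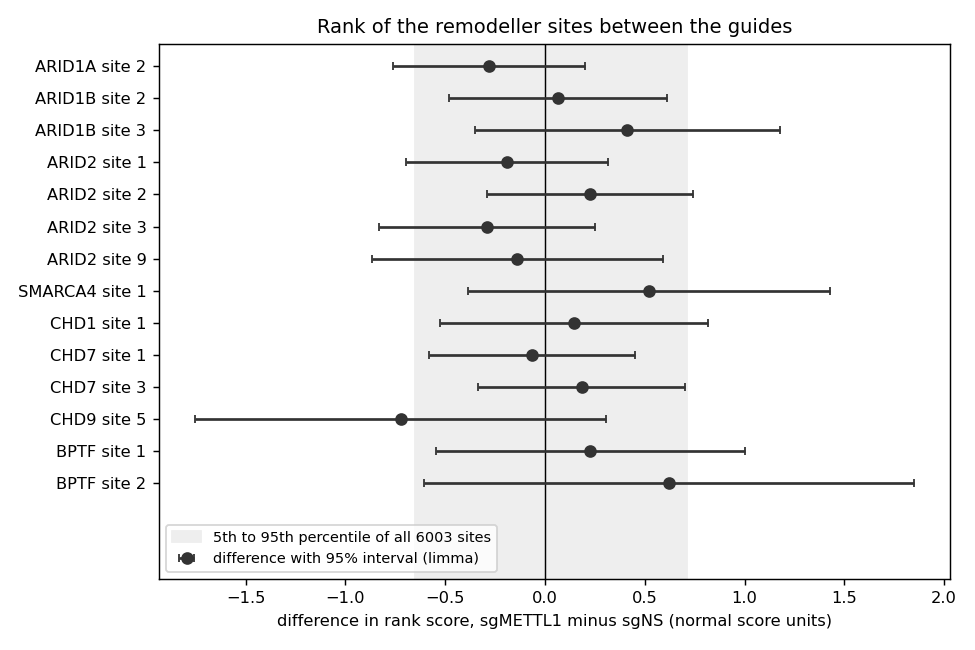
Difference in rank score, sgMETTL1 minus sgNS (normal score units), for the 14 remodeller sites, with limma's 95% interval. The grey band holds the 5th to 95th percentile of all 6003 sites (-0.65 to 0.71), and every interval crosses 0.

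By presence, 0 of the 27 remodeller sites were found in both lists of sgNS and missing from both of sgMETTL1, while this held for 7.42% of all 14518 sites. CHD9 site 4 (53326215 to 53326365) was the 1 site with the opposite pattern, found with sgMETTL1 alone, at 2.7-fold and 3.86-fold with sgMETTL1, beside 1.21% of all sites. It rested on narrow peaks of 61 and 121 bases and was not called when peaks had to share 50% of their length. ARID1A site 1 counted as lost in that setting, as 1 of 1366 lost sites among 20233 over all genes. The other 5 sites of 2 lists were each in 1 list of either guide, for example ARID2 site 7 at 4.48-fold in replicate 2 of sgMETTL1 and 4.63-fold in replicate 1 of sgNS. No exact test of single sites was run, since 2 lists per guide allow no two-sided p smaller than 0.33.

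The evidence for a peak and its extent were also compared. At 11 of the 14 sites the p was weaker in both sgMETTL1 lists than in both sgNS lists, and this held for 76.2% of all sites. The reverse was true of SMARCA4 site 1 alone, beside 3.45% of all sites, and the guides overlapped at ARID1B site 3 and BPTF site 2. Peaks were narrower in both sgMETTL1 lists at 7 of the 14 sites, against 47.0% of all sites, and wider at 0, against 4.25%. The widths of CHD1 site 1 show it, at 688 and 658 bases with sgMETTL1 and 778 and 748 bases with sgNS. Over the 8 genes, peaks covered 8616 and 8760 bases with sgMETTL1 and 10617 and 10680 bases with sgNS. The median peak of the whole list was 240 and 241 bases wide with sgMETTL1 and 270 bases in both sgNS lists, so the shift was shared by the series. The part of sequencing depth in it was not tested.

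A ratio between the folds of sites on 1 transcript is free of any constant factor between lists. In CHD7 the fold of site 1 over that of site 3 was 1.198 and 1.14 with sgMETTL1, against 1.65 and 1.33 with sgNS. The ARID2 ratio of site 1 to site 2 was 17.0 and 21.2 with sgMETTL1, against 23.0 and 26.8 with sgNS. Both of these were lower with sgMETTL1 with no overlap. Site 1 of ARID2 over site 3 was higher, at 10.2 and 10.5 with sgMETTL1, against 8.83 and 8.43 with sgNS. Together, 2 of 6 such ratios were lower and 1 of 6 higher, beside 22.3 and 18.5% of the 2009 ratios that could be formed over all genes. The other 3 overlapped, with the widest range at BPTF, where site 2 over site 1 was 3.58 and 14.7 with sgMETTL1, against 8.18 and 1.91 with sgNS.

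By gene, the strongest fold of each transcript was ranked among the genes of its list. ARID2 ranked highest of the 8 on average, at the 7.80th and 4.45th percentile with sgMETTL1 and the 3.67th and 3.64th with sgNS. ARID1B followed, at 12.0 and 23.4 with sgMETTL1 and 17.8 and 14.7 with sgNS. Their ranges did not overlap. CHD9 ranked at 33.2 and 28.9 with sgMETTL1 and at 21.3 and 2.49 with sgNS. For BPTF the percentiles were 37.1 and 5.22 with sgMETTL1 and 21.2 and 50.1 with sgNS, a range that covers those of ARID1B and ARID1A. ARID1A ranked at 34.2 and 39.5 with sgMETTL1, against 20.6 and 27.1 with sgNS. CHD7 stood at 45.4 and 32.9 with sgMETTL1 and 44.7 and 18.3 with sgNS. Its strongest fold was that of site 1 in the first replicates and that of the poorly supported site 4 in the second. The percentiles of CHD1 were 55.7 and 47.9 with sgMETTL1 and 63.3 and 43.5 with sgNS. Between ARID1B and CHD1 each neighbour in this order overlapped the next. SMARCA4 stood apart at the bottom, at 97.1 and 98.2 with sgMETTL1 and 99.7 and 96.9 with sgNS.

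Between the guides, limma on gene ranks called 0 of the 8 genes and 0 of 4150 genes (0.0%), with 0 of the 8 and 408 of the 4150 at an unadjusted p under 0.05. Both sgMETTL1 scores were lower for ARID1A, ARID2 and CHD9, that is 3 of 8 genes, against 22.7% of all genes, and higher for 0 of 8, against 20.0%. The score difference was -0.81 for CHD9 (interval -1.94 to 0.31, adjusted p = 0.589), -0.33 for ARID1A (interval -0.82 to 0.17, adjusted p = 0.604) and -0.21 for ARID2 (interval -0.73 to 0.32, adjusted p = 0.755). CHD9 stood at -0.21 without replicate 2 of sgNS and at -1.41 without replicate 1, and ARID2 at -0.0576 without replicate 1 of sgMETTL1 and at -0.36 without replicate 2. When a gene's peaks were averaged in place of taking the strongest, 0 of the 8 genes had both scores lower, against 23.2% of all genes.

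**Figure D5:**
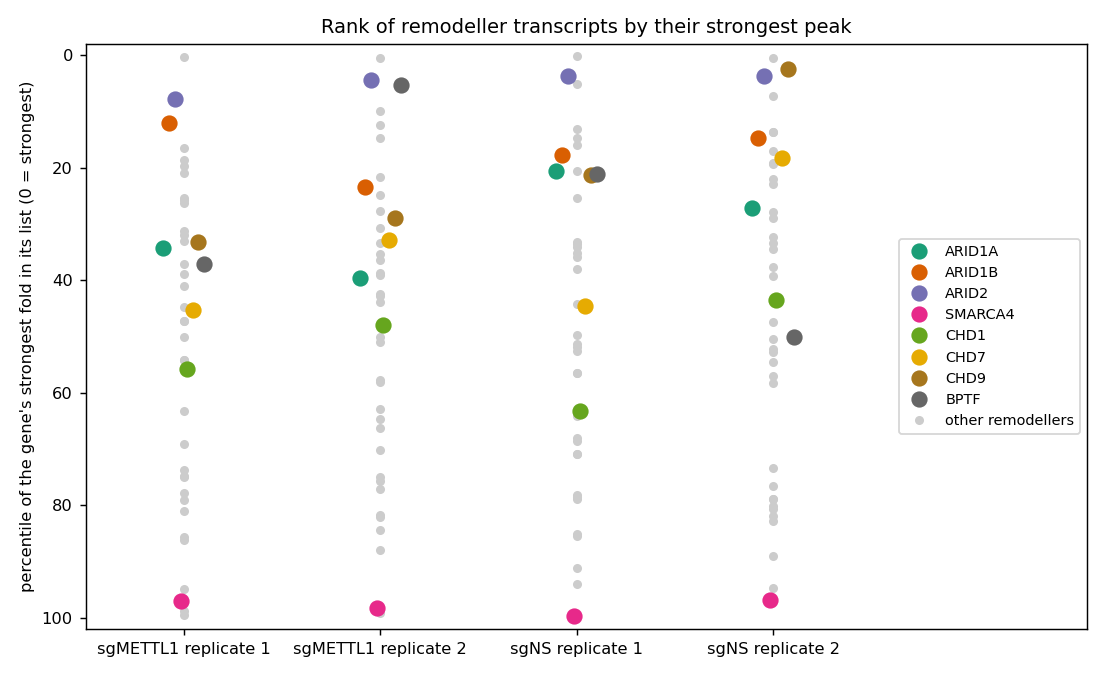
Percentile by strongest fold (0 is the strongest, at the top), for the 8 remodellers in colour and 33 other remodeller genes in grey, by list with sgMETTL1 left of sgNS. ARID2 stays above the 8th percentile mark and SMARCA4 below the 96th in all 4 lists, while among the 8 BPTF and CHD9 move most between lists.

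A wider list of 76 remodeller subunits, also drawn up with earlier results known, held 68 genes besides the 8. Of these 68, 42 had a peak in any list and 33 in all 4. Among these 33, the 6 with the best mean percentile were MBD2 of the NuRD complex, the ISWI partner BAZ1A, the histone-binding RBBP4, counted here with the ISWI genes, the CHD ATPase CHD6, the remodeller ATPase SMARCAD1 and the SWI/SNF core subunit SMARCC2. MBD2, a reader of methylated DNA, had the best mean percentile (0.400), with folds of 157 and 127 with sgMETTL1 and 183 and 160 with sgNS. BAZ1A had 21 and 30.5 with sgMETTL1, against 47.5 and 20.4 with sgNS. CHD6 had 19.2 and 27.2 with sgMETTL1, against 27.4 and 20.5 with sgNS.

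The alternative ATPase SMARCA2 had folds of 6.1 and 3.89 with sgMETTL1 and 4.63 and 6.34 with sgNS, above SMARCA4 in every list. It was named after its values were seen. By complex, 12 of 28 SWI/SNF genes, 11 of 13 ISWI genes, 11 of 17 CHD and NuRD genes and 5 of 15 INO80 and SRCAP genes had a peak in all 4 lists, with the 8 counted in. A peak in any list was found for 17, 12, 13 and 6 of them, in the same order. The 63.7% over all named genes counts only genes with a peak in some list. SS18L1, a SWI/SNF subunit, was listed only with sgNS, at 3.14-fold and 4.53-fold (percentiles 81.7 and 68.0). BRD9, a bromodomain subunit of a further SWI/SNF form, was listed only with sgMETTL1, at 1.99-fold and 2.63-fold (percentiles 95.1 and 86.0). The share of all genes listed with 1 guide only was not counted. The lists named 5091 and 4981 genes with sgMETTL1 and 5570 and 5359 with sgNS. The genes closest to the 8 in percentile over the 4 lists were BRD7 to SMARCA4 (largest difference 5.67 points), MBD2 to ARID2 (7.45), SMARCAD1 to CHD9 (7.79) and RBBP4 to ARID1B (8.61). BAZ2A lay within 9.82 points of CHD1, SMARCC2 within 10.2 of ARID1A and ACTR6 within 13.9 of CHD7. No gene came closer to BPTF than INO80, at 27.2 points.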

How the data were processed

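Per the labels' protocols, lysates were sonicated, RNA was recovered with a Flag antibody, and stranded libraries were made after removal of ribosomal RNA. Per the submitters' processing notes, STAR and GRCh38 were used. Neither the peak caller nor its threshold or any scaling between lists is given in the sources used here. Each IP and input pair has its own list as deposited, with replicates not pooled. In these lists the fold enrichment is a ratio deposited by the authors, and the p-value and its base-10 logarithm (handled as a score) are also as deposited by the authors. Read counts were not used, so the depth behind a value is unknown.

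The 8 samples were grouped by title. Starts in the files count from 0 and were made 1-based. Peaks of 1 gene name and strand were joined into a site when their exon blocks shared at least 1 base between lists, directly or through a peak of another list; the peak with the smallest p stood for a site where a list held several. Ranks were taken within each list among the sites, or the genes by their strongest fold, found in all 4 lists. Their normal scores were fitted with limma 3.58.1 in R 4.3.3 (Python 3.11.15, pandas 2.3.3, scipy 1.17.1, numpy 2.4.6, matplotlib 3.10.9). Replicate numbers were not used as pairs: deviations of same-numbered lists correlated at 0.006 over sites. The site fit and the matching of peaks were tested on simulated data with known changes, and a site difference somewhat larger than any seen at the 8 genes was not called there.

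Gene ends are those of RefSeq on GRCh38.p14. The steps in the folds, the widths and the ratios within genes were examined after the data were seen. A fold was taken as a whole multiple when it lay within its rounding (0.005 under 10, 0.05 above) plus 0.0006 per step. The members, the wider list and the markers were chosen with earlier results of these data known. One marker gene is not reported here. Text names all 8 members, and of the wider list the 6 best-ranked among genes in all 4 lists, the lost, the gained and the nearest gene to each member; 2 of its genes were matched through older symbols. Alternatives were log2 folds, ranks of log10 p, 50% reciprocal overlap, the highest fold of a site, a mean over a gene's peaks, a filter at 2 times the smallest fold of a list, equal numbers of peaks, the replicate block and leaving out each list.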

Additional observations from a re-analysis of the deposited data

How the results depend on the processing

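Limma called 0 sites, 0 genes and 0 members in all settings run, and the lowest adjusted p of a member was 0.254 (ARID1B site 2, ranks of log10 p). At an unadjusted p under 0.05, limma found 1 of the 14 sites on log2 folds (not centred) and 2 on ranks of log10 p, beside 822 and 1085 of the 6003. Of 198 recomputed member differences, 181 kept their direction and 17 turned, 11 of them when 1 list was left out. The cause was not tested. On ranks of log10 p, ARID1B site 2 turned to -0.31, CHD1 site 1 to -0.24 and CHD7 site 1 to 0.0355. With a mean over each gene's peaks, ARID1A turned to 0.11, ARID1B to -0.0134 and CHD7 to 0.13. Without 1 list the differences ranged from -0.11 to 0.24 (ARID1B site 2), -0.21 to 0.0814 (CHD7 site 1), -0.48 to 0.20 (ARID2 site 9), -0.15 to 0.60 (BPTF site 1) and -0.14 to 0.43 (CHD1 site 1). For genes they ranged from -0.15 to 0.23 (ARID1B), -0.58 to 0.25 (CHD7) and -0.13 to 0.46 (CHD1). Those that kept their sign moved too, to as little as 0.0097 and as much as 1.297 for the BPTF gene and from 0.0554 to 0.839 for the SMARCA4 gene.

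The 2 sites with both sgMETTL1 scores higher became 1 with 50% reciprocal overlap, 1 with a fold of at least 2 times the minimum, 0 on log2 folds and 3 to 6 without 1 list. The 4 lower sites became 4 to 6 without 1 list. Over all sites, 20.1% were higher with 50% reciprocal overlap and 19.4% with that filter on the fold. Without 1 list, 36.9 to 38.6% of all sites were lower and 33.1 to 35.0% higher, so scores separated more often over the whole series too. With a mean over each gene's peaks, 0 of the 8 genes were lower and 1 higher (3 and 0 before), beside 23.2 and 21.0% of all genes. Without 1 list 3 to 5 were lower and 1 to 3 higher, beside 36.1 to 38.8% and 32.2 to 35.3% of all genes. Sites in every sgNS list and no sgMETTL1 list became 1 with 50% reciprocal overlap and with equal numbers of top-ranked peaks (ARID1A site 1). They became 0 to 2 without 1 list. Over all sites they numbered 1366 of 20233, 705 of 12443, and 1653 to 2772 of 12823 to 13725 without 1 list. Sites in every sgMETTL1 list and no sgNS list became 0 with 50% reciprocal overlap and 1 to 3 without 1 list. Over all sites these numbered 566 of 20233, and 312 to 1165 of 12823 to 13725 without 1 list. In the main matching the counts were 1077 and 175 of 14518. With 1 list left out, the call for its guide rested on a single list. Over all sites, log2 folds shifted the median to -0.23, and the directions of the member differences are given relative to it. The counts of lower and higher sites on log2 folds were not centred. There 39.2% of sites were lower and 9.73% higher in both sgMETTL1 lists, against 23.6 and 20.3% on ranks. The replicate block (2 lists per guide, a number the labels do not tie to a batch) changed no call: 0 sites and 0 genes. It left the score difference of CHD9 site 5 at -0.72 (adjusted p = 0.507). Without 1 list a lone list is assumed to vary like the others. The 2 replicates per guide and the unknown depth limit all of these comparisons.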
